A study of Mus musculus with 2 samples.

Results

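The genes described here are 8 members of the vertebrate families of large-pore channels: the connexins Gja1, Gjb2, Gjb6, Gjd2, Gjc1 and Gjc3 and the pannexins Panx1 and Panx2. They were chosen by name, and each symbol matched 1 of 55536 annotated mouse genes. They were measured by total RNA-seq in the left cerebral cortex of female B6CASTF1/J mice (B6Cast F1) at postnatal day 4. All tissue was of this strain, sex and age, with no treatment and no contrast, so the 2 libraries form 1 group. The labels number them as separate biological replicates and give the tissue samples different animal numbers, but both cite a single donor record. If that record is 1 animal, SDs and p-values measure only the spread between these libraries, which may then be technical. Each library was made from 300 ng of RNA with ERCC spike-in RNAs, and the counts over annotated genes summed to 29310533 (replicate 1) and 28844674 (replicate 2). A level is given in TPM (the abundance unit of the tables, corrected for transcript length and for the size of the library), and a gene is called detected where both libraries reach a TPM of 1. An error is the SD over the libraries (n = 2).

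Connexins assemble into rings in the cell membrane, and rings of neighbouring cells dock to form gap junctions, through which ions and small metabolites pass between cells. In the brain they couple astrocytes into networks, form the electrical synapses of neurons and link oligodendrocytes to astrocytes. Pannexins have a similar fold but different sequences and mostly act as channels to the outside of the cell, the best known role being the release of ATP by Panx1.

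The docking loops of connexins are held together by cysteines at fixed spacing, and the coding bases of the first loop are shown because they are what the 6 connexin members share and the pannexin members lack. The stretches below are 36 bases each, read 5′ to 3′ on the coding strand from the GENCODE M21 transcripts. Capitals mark the 3 cysteine codons. They lie in coding exons at chr10:56387706-56387741 (plus strand), chr14:57100558-57100593 (minus), chr14:57124611-57124646 (minus), chr2:114011797-114011832 (minus), chr11:102800984-102801019 (minus) and chr5:137957797-137957832 (minus) on mm10, in the order printed.
Gja1: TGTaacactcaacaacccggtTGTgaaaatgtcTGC
Gjb2: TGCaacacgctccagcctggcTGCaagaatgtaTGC
Gjb6: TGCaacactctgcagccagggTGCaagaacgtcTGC
Gjd2: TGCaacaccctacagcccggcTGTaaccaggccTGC
Gjc1: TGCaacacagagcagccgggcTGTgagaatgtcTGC
Gjc3: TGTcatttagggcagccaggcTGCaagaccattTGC

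Of the 36 bases, 15 were identical in all 6 connexins. Gjb2 and Gjb6 were the most alike of the 15 pairs, with 30 identical bases, and Gjc3 was the most distant, with 18 identical bases against Gja1 and against Gjd2. A cysteine, 6 residues, a cysteine, 3 residues and a cysteine, followed further on by a cysteine, 4 residues, a cysteine, 5 residues and a cysteine, were encoded by 17 of 19 annotated connexin genes with a complete coding sequence and by 0 of 3 pannexin genes. Over 21778 mouse genes, 0.560% encoded both patterns.

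Of the 8 members, 7 were detected, all but Gjc3. Among all annotated genes 27.6% were detected, and among protein-coding genes 59.8%. Panx1 had the highest level and Gjc3 the lowest. In tissue of many cell types, a low level can mean few cells of a type or little RNA per cell, and these cannot be told apart here.

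**Figure D1:**
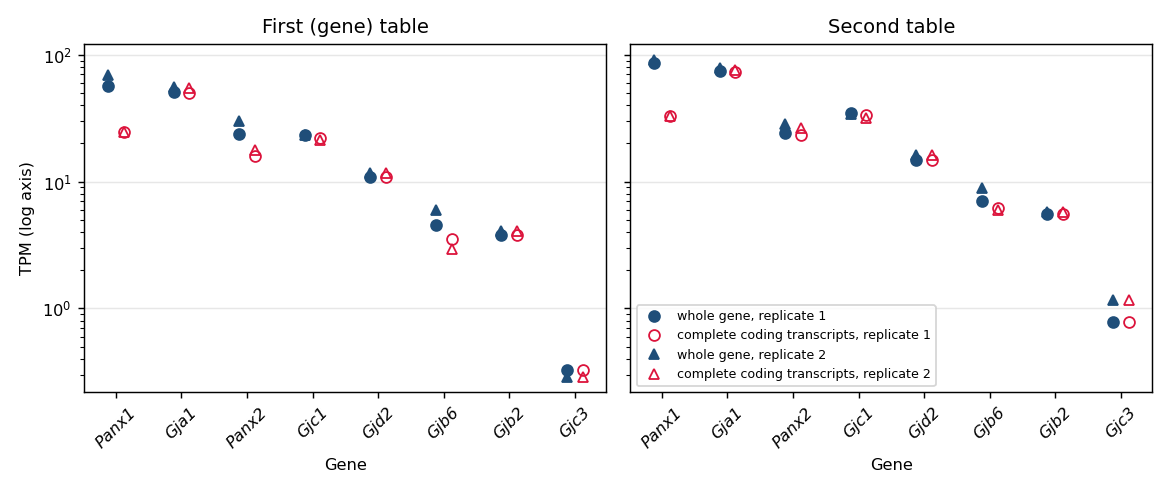
Levels of the 8 members in TPM (log axis) in the gene table (left) and the second table (right). Circles are replicate 1 and triangles replicate 2. Filled blue symbols are whole-gene values and open red symbols keep only transcripts with a complete coding sequence. Panx1 is highest as a whole gene and lies below Gja1 when only its complete coding transcript is kept, in both tables.

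Gja1, the main gap junction gene of astrocytes and also active in radial glia (ENSMUSG00000050953.10, chr10:56377330-56402513 on mm10, plus strand), had a level of 50.6 TPM from 2918 counts in replicate 1 and of 55.3 TPM from 3029 counts in replicate 2. Its mean level of 53.0 ± 3.27 TPM was at percentile 83.7 of the 15304 detected genes. Gja1 alone made up 48.8% ± 0.310 of the summed TPM of the 20 annotated connexin genes. No other connexin held as large a share in either library, and the libraries gave 48.6% and 49.0%.

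Gjb6, the second connexin of astrocytes, known to rise as these cells mature (ENSMUSG00000040055.9, chr14:57123303-57133611, minus strand), was at 4.59 TPM (175 counts) in replicate 1 and 5.98 TPM (183 counts) in replicate 2. Gjb2, a connexin of the meninges and of some astrocytes (ENSMUSG00000046352.7, chr14:57098600-57104702, minus strand), was at 3.82 TPM (171 counts) and 4.08 TPM (174 counts). The 2 genes are neighbours on chromosome 14, with 18600 bases and 1 annotated gene, Gm4491, between them. Their levels were close: the ratio of Gjb6 to Gjb2 was 1.20 in replicate 1, with an exact 95% interval of 0.968 to 1.49, and 1.47 in replicate 2 (1.18 to 1.81). Against Gja1 both were low, and log2 of the TPM ratio of Gja1 to Gjb6 was 3.34 ± 0.18, or 4.02 ± 0.27 with only transcripts of a complete coding sequence.

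Gjd2 forms the electrical synapses of neurons, among them those between inhibitory interneurons (ENSMUSG00000068615.4, chr2:114009601-114013619, minus strand). It was at 10.9 TPM (587 counts) in replicate 1 and 11.7 TPM (601 counts) in replicate 2. Gjc1, a connexin described in neurons and in cells of the vessel wall (ENSMUSG00000034520.14, chr11:102799579-102819700, minus strand), was at 23.4 TPM (858 counts) and 23.2 TPM (829 counts). Gjc1 was therefore above Gjd2 in both libraries, by 2.15 times (exact 95% interval 1.93 to 2.39) and 1.98 times (1.78 to 2.21). Gjc1 held 21.5% ± 1.31 of the connexin TPM and Gjd2 10.4% ± 0.0424. The first bases of the Gjd2 gene overlap 2 noncoding genes on the opposite strand, both named A530058N18Rik, by 57 and 18 bases.

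Gjc3, a connexin of rodent oligodendrocytes and Schwann cells (ENSMUSG00000056966.7, chr5:137953461-137963098, minus strand), reached 0.33 TPM and 0.29 TPM in replicates 1 and 2. These values rest on 25 counts (exact 95% Poisson interval 16.2 to 36.9) and 21 counts (13.0 to 32.1). The second table, made by another quantifier, gave it 44.1 and 64.3 counts, 2.36 times as many, where the median detected gene had 1.07 times as many. The gene had reads in both libraries and both tables, but its level was below 1 TPM in all but replicate 2 of the second table (1.16 TPM).

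Markers of the oligodendrocyte lineage, in which Gjc3 is known, were also measured. Of 7 markers of myelinating oligodendrocytes 3 were detected, and their summed level was 43.3 and 40.1 TPM: Mbp, which encodes a main protein of myelin, had 17.0 ± 1.32 TPM, Cnp 15.5 ± 1.12 TPM, and Opalin, a gene of mature oligodendrocytes, was listed at 0 in both libraries. All 7 markers of oligodendrocyte precursors were detected, with a summed level of 122 and 134 TPM. Cspg4 among them is also on the list of mural cell markers. Sums over different genes do not measure numbers of cells, and whether these markers bear on the level of Gjc3 was not tested. Gjb1, another connexin of oligodendrocytes, was at 1.21 ± 0.205 TPM.

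Panx1, the channel that releases ATP and opens when caspases cut its tail (ENSMUSG00000031934.14, chr9:15002128-15045478, minus strand), was at 56.7 TPM (3420 counts) in replicate 1 and 69.7 TPM (3349 counts) in replicate 2. Panx2, a pannexin enriched in brain and found mainly on membranes inside the cell (ENSMUSG00000058441.7, chr15:89059734-89073567, plus strand), was at 23.9 TPM (1045 counts) and 30.1 TPM (1144 counts). Both had higher TPM values in replicate 2, while Panx1 had fewer counts there. The log2 ratio of Panx1 to Panx2 was 1.23 ± 0.03 on the TPM scale and 1.75 ± 0.11 in the second table. With only transcripts of a complete coding sequence it was 0.54 ± 0.13, and 0.42 ± 0.13 in the second table. Panx3, a pannexin of skin and bone, had 1 count in replicate 1 and 0 in replicate 2, where a count of 0 allows up to 3 counts (a one-sided 95% limit).

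In the order of mean TPM, Panx1 was followed by Gja1, Panx2, Gjc1, Gjd2, Gjb6, Gjb2 and Gjc3. Of the 7 neighbouring pairs in this order, 5 were separated, which required that the library values did not overlap and that the exact 95% interval of the ratio lay above 1 in each library. The pairs that were not separated were Panx2 with Gjc1 (ratio 1.02 in replicate 1, interval 0.933 to 1.12) and Gjb6 with Gjb2. In the second table Gjc1 was above Panx2 and the pair was separated, by 1.45 times (1.33 to 1.59) in replicate 1 and 1.19 times (1.09 to 1.30) in replicate 2. Gjb6 was also separated from Gjb2 there, by 1.27 times (1.03 to 1.57) and 1.54 times (1.25 to 1.90), so all 7 pairs were separated. The intervals cover counting error only, and they take the effective lengths and the assignment of reads as fixed. No molecular identifiers are named for these reads, so duplicates may count as separate reads.

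**Figure D2:**
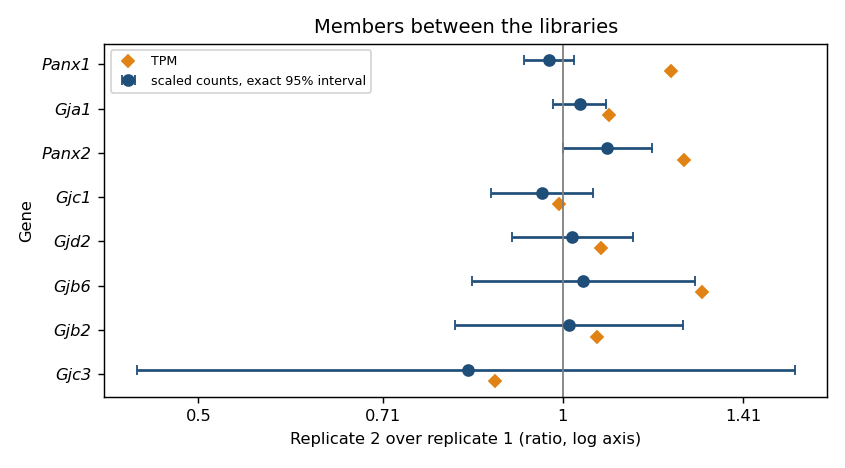
Ratio of replicate 2 to replicate 1 for each member (log axis), from scaled counts with the exact 95% interval (blue) and from TPM (orange). All 8 intervals but that of Panx2 include 1, while the TPM ratios of Panx1, Panx2 and Gjb6 lie above 1.2.

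Between the libraries, no member passed the test on counts. The comparison was an exact conditional binomial test over 18492 genes with Benjamini-Hochberg adjustment, a test of these libraries and not of conditions. Of the 8 members 0 were called at an adjusted p under 0.05 with a log2 ratio beyond ±1, against 2.88% of all genes tested, and 0 at the adjusted p alone, against 23.9%. At an unadjusted p under 0.05 there was 1, Panx2 (exact binomial p = 0.048, adjusted p = 0.145). Its count ratio was 1.09 (95% interval 1.0007 to 1.19), and its adjusted p was 0.057 to 0.381 over the other settings of the test. The share of all genes at that unadjusted level was not counted, but it is at least 23.9%, since adjustment never lowers a p-value. The median size of the log2 ratio was 0.05 over the members and 0.14 over all genes tested. These sets were not matched for counts, and genes with as few as 20 counts over both libraries were among those tested. Gja1 had a count ratio of 1.03 (0.981 to 1.09), Panx1 0.974 (0.929 to 1.02) and Gjd2 1.02 (0.908 to 1.14). Gjc3 had the widest interval, 0.445 to 1.56 around a ratio of 0.836, so a difference within these bounds was not detectable at this depth.

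The libraries differed in the RNA of marker genes of choroid plexus, ependyma and blood, which are not part of the cortex proper. Numbers of cells were not measured. The summed level of 7 choroid plexus and ependyma markers was 224 TPM in replicate 1 and 9.09 TPM in replicate 2, with 5 of the 7 called lower in replicate 2 (Ttr, Folr1, Clic6, Otx2 and Ccdc153), and that of 4 blood genes was 457 and 58.5 TPM, with all 4 called lower (Hbb-bs, Hba-a1, Hba-a2 and Alas2). No marker of astrocytes, radial glia, oligodendrocyte precursors, myelinating oligodendrocytes, neurons, meninges, endothelium, mural cells or microglia was called with a log2 ratio beyond ±1. At the adjusted p of the same exact binomial test alone, 19 of their 59 tested markers passed, against 23.9% of all genes tested. The markers were not matched to all genes for counts, and small ratios pass more easily at high counts. Of the 19, 4 were higher and 15 lower in replicate 2, and the log2 ratios of all 59 lay between -0.80 and 0.42. Of the astrocyte markers 4 of 8 passed, all lower in replicate 2. The 8 astrocyte markers, all detected and led by the glutamate transporter genes Slc1a3 and Slc1a2, summed to 392 and 380 TPM, and the 9 meninges and fibroblast markers, led by Ptgds and Igf2, to 633 and 704 TPM. All markers of radial glia (7), neurons (8), endothelium (6), mural cells (5) and microglia (5) were detected, and their sums were 752 and 718, 2457 and 2399, 94.98 and 99.74, 59.5 and 62.9, and 29.7 and 34.8 TPM. The members' count ratios above were measured with these differences present, and whether they bear on any member was not tested.

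For 3 members, Panx1, Panx2 and Gjb6, the TPM of the whole gene differed between the libraries by more than 1.2 times, and the counts by less. Panx1 was at 56.7 and 69.7 TPM, a ratio of 1.23, with a count ratio of 0.974. Panx2 had a TPM ratio of 1.26 and a count ratio of 1.09, and Gjb6 1.30 and 1.04. In each of them, short or incomplete transcripts of the annotation received more reads in replicate 2 of the first table. A read on a short transcript adds more TPM than one on a long transcript, but how far this accounts for the ratios was not tested. For Gjb6 the largest gain was in Gjb6-204, a retained-intron model of 1918 bases, nearly as long as Gjb6-201 (2105 bases). Gjb6-204 had 38.4 and 64.7 counts, with posterior SDs from the assignment of shared reads of 14.79 and 14.55 counts. Gjb2 and Gjd2, with 1 annotated transcript each, had TPM ratios of 1.07 and 1.08 and count ratios of 1.01 and 1.02. The other members with several annotated transcripts, Gja1 (8), Gjc1 (5) and Gjc3 (2), had TPM ratios of 1.09, 0.992 and 0.879.

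**Figure D3:**
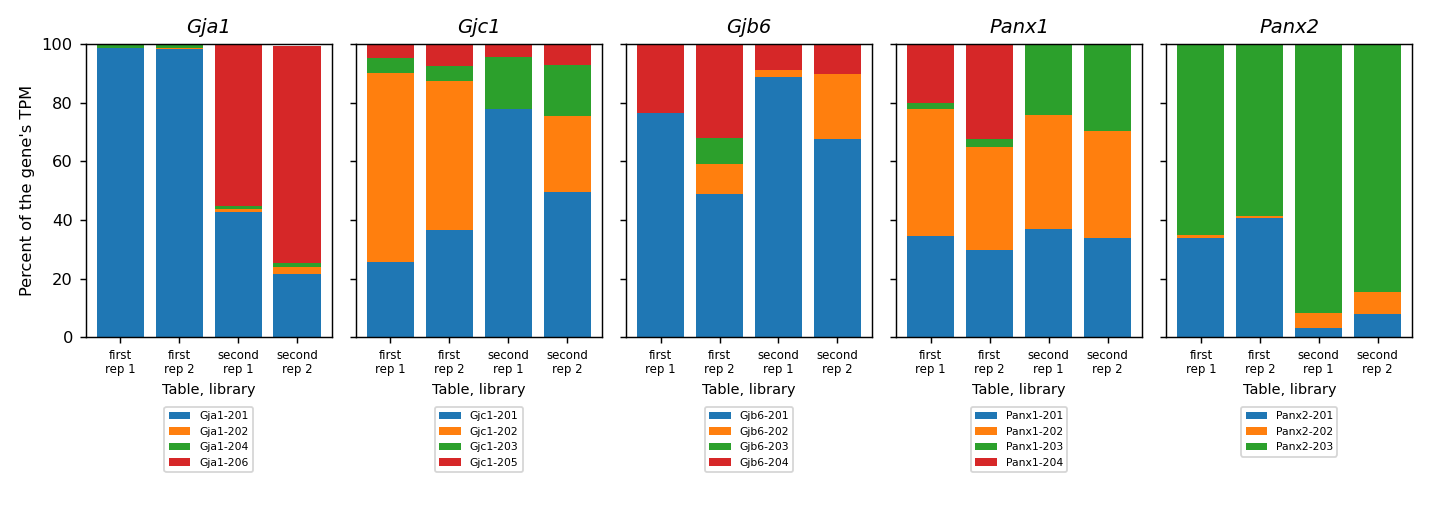
Share of each gene's TPM (percent) held by its transcripts, for the 5 members with more than 1 expressed transcript. Each panel has replicates 1 and 2 of the first table and of the second table, and transcripts under 1% in every column are left out. Gja1 and Gjc1 have different leading transcripts in the tables, and the Panx1 transcripts Panx1-201 and Panx1-202 keep similar shares.

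On the TPM scale Panx1 was the member with the lowest mean share of complete coding messages. By counts in the first table it was Gjb6, with 68.6% ± 13.3 against 77.3% ± 1.63 for Panx1. In replicate 1 these shares were close, 78.0% for Gjb6 and 78.4% for Panx1. By counts in the second table it was Panx1, with 77.2% ± 0.16 against 86.0% ± 7.28 for Gjb6. Panx1-202, the 5-exon transcript that encodes the whole protein (1278 coding bases), had 24.5 TPM in each library. It held 78.4% and 76.1% of the gene's counts but 43.2% and 35.1% of its TPM. Complete coding transcripts held 39.2% ± 5.74 of the TPM of Panx1, against a median of 81.6% over 13088 detected protein-coding genes, and the second table gave 37.5% ± 1.79 against a median of 76.9%.

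The Panx1 transcript next in counts, Panx1-201, is annotated as a target of nonsense-mediated decay, the pathway that degrades messages with an early stop codon. It skips exon 3 (chr9:15010036-15010256), whose 221 bases are not a multiple of 3, so that the reading frame shifts. The sequences across the junction after exon 2 are shown because they tell the transcripts apart: each has the last 24 bases of exon 2, which ends at 15021382 on chromosome 9, followed by 18 bases of the next exon in that transcript, which begins at 15010256 in Panx1-202 and at 15008019 in Panx1-201. Capitals mark the stop codon that Panx1-201 meets at the end of those 18 bases.
Panx1-202: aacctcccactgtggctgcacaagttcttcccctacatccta
Panx1-201: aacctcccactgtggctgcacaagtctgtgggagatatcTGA

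Panx1-201 had 19.6 TPM (670 counts) in replicate 1 and 20.8 TPM (676 counts) in replicate 2. It made up 45.2% ± 1.05 of the TPM of Panx1-201 and Panx1-202 together, and 48.6% ± 0.319 in the second table. In both libraries and both tables the exon-skipping form was thus slightly below the full-length form. Nonsense-mediated decay transcripts held 32.2% ± 3.37 of the TPM of Panx1, at percentile 89.7 of 3704 detected genes that have such a transcript (median 5.42%). These shares rest on the annotated lengths: the last exon is 433 bases in Panx1-201 and 4090 bases in Panx1-202, and by counts the shares of the gene were 19.6% and 20.2%.

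**Figure D4:**
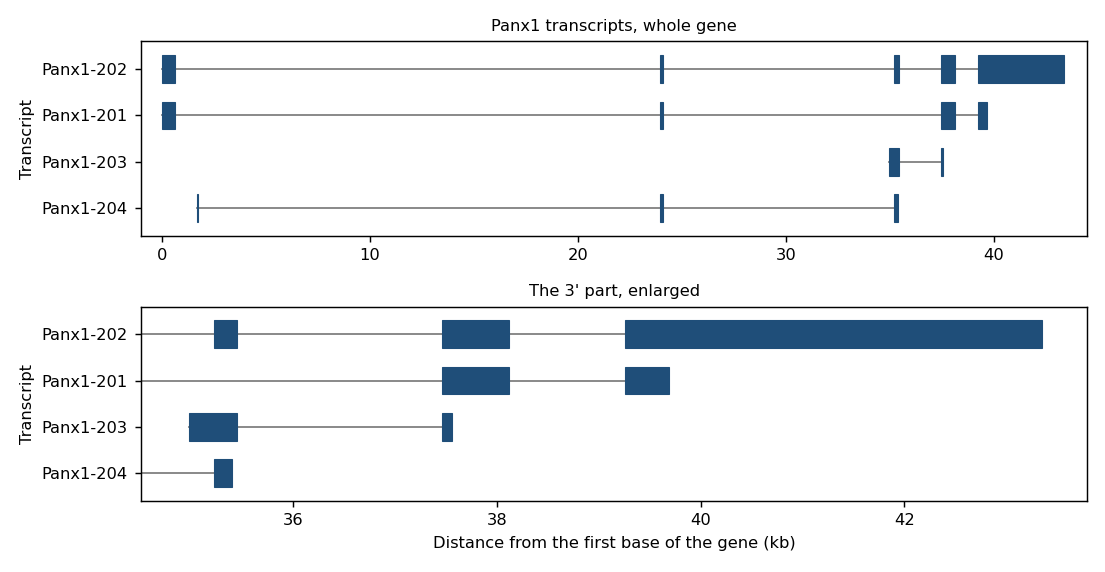
Exons (boxes) and introns (lines) of the 4 annotated Panx1 transcripts by distance from the first base of the gene in kb, to scale, for the whole gene (top) and its 3′ part enlarged (bottom). Panx1-201 lacks the exon that follows the second exon in Panx1-202 and has a shorter last exon. Panx1-203 and Panx1-204 are short models.

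The other Panx1 transcripts depended on the table. Panx1-204, an incomplete model of 357 bases with its own first exon, reached 11.4 and 22.6 TPM in replicates 1 and 2 of the first table, from 57.1 and 108 counts, and had 0 counts in the second table. Panx1-203, a retained-intron model of 575 bases, had 1.18 and 1.80 TPM there, against 20.7 and 27.2 TPM in the second table. Each table thus placed a small part of the reads on a short model, though on different ones. Panx1-204 held 1.67% and 3.23% of the counts but 20.1% and 32.5% of the TPM in the first table, and Panx1-203 held 2.05% and 2.70% of the counts but 24.2% and 29.8% of the TPM in the second.

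With complete coding transcripts alone, a setting chosen after the data were seen, Gja1 was above Panx1 instead of below it. The log2 ratio of Panx1 to Gja1 was 0.25 ± 0.12 for whole genes and -1.09 ± 0.09 for complete coding transcripts. In the second table it was 0.21 ± 0.01 and -1.16 ± 0.04. On this scale the order in the first table was Gja1, Panx1, Gjc1, Panx2, Gjd2, Gjb2, Gjb6 and Gjc3, and 6 of the 7 neighbouring pairs were separated, all but Gjb2 with Gjb6. In the second table Gjb6 came before Gjb2 and 5 of 7 pairs were separated: Gjb6 with Gjb2 was not, nor was Panx1 with Gjc1, at ratios of 0.990 and 1.05.

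Panx2 had 3 annotated transcripts, led by Panx2-203 (3 exons, 2031 coding bases) with 95.1% and 94.1% of the counts. Panx2-201, a model of 355 bases without its start, held 3.86% and 5.05% of the counts but 33.9% and 40.5% of the TPM. In the second table it had 1 and 3 counts. Complete coding transcripts of Panx2 had 16.9 ± 1.50 TPM in the first table and 24.8 ± 2.16 TPM in the second one. The whole-gene TPM of Panx2 in the second table was 0.976 of that in the first, where the median detected gene was at 1.50 times, and 5.85% of detected genes had a ratio as low. The 3′ part of Panx2 overlaps 1810021B22Rik, an antisense gene with 8 and 7 counts, over 2372 bases. Whether the counting used the strand is not given in the sources used here.

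Gja1 had 8 annotated transcripts, and 2 of them, Gja1-201 and Gja1-206, encode the whole protein from the same coding exon (1146 coding bases). They differ in the first exon, which is noncoding: it is 189 bases in Gja1-201 and 300 bases in Gja1-206, whose start lies 1758 bases further downstream. In the first table Gja1-201 took 98.5% ± 0.389 of the gene's TPM and Gja1-206 was listed at 0 counts in both libraries. In the second table Gja1-206 led with 54.9% in replicate 1 and 73.9% in replicate 2. The tables thus placed most Gja1 molecules on different first exons, but in each table these transcripts together held nearly all of the gene: 98.5% ± 0.388 of the TPM in the first and 96.6% ± 1.55 in the second.

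The 250 bases before the Gja1 start in RefSeq (GRCm38.p6, chr10:56377050-56377299, plus strand) are shown because they precede the first exon of Gja1-201, on which the tables differ. Capitals mark a match to TGANTCA, the letters bound by AP-1 factors, which begins 19 bases before the start.
Gja1 promoter: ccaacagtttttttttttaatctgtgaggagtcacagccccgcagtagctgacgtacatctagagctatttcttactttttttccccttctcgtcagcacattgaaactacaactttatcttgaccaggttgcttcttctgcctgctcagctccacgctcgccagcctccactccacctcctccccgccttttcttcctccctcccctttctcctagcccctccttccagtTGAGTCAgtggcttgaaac

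TGANTCA, searched on both strands, was present in 1 of the 6 members with a promoter entry and in 6.75% of 32851 RefSeq promoter windows of the same length. GGGCGG, the letters of a GC box, was present in those of Gjb2 and Gjd2 and in 32.7% of all windows. The GC content of the windows was 50% for Gja1, 69.2% for Gjb2, 56.8% for Gjb6, 74% for Gjd2, 48.8% for Gjc3 and 59.6% for Panx1, with a median of 52.4% over all windows. Gjc1 and Panx2 had no entry. A match is a description of these letters and was not tested for binding.

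Gjc1 had 3 complete coding transcripts that share 2 exons of 1693 bases and differ in the noncoding first exon. Gjc1-202 led in the first table with 64.3% and 50.9% of the TPM, and Gjc1-201, which starts 521 bases further downstream, led in the second with 77.8% and 49.4%. Gjc1-202 had 522 and 391 counts in the first table, with posterior SDs from the assignment of shared reads of 70.9 and 97.3 counts, and 0.185 and 206 counts in the second. The tables thus differed in the leading start of Gjc1. The complete coding transcripts together held 93.8% ± 1.92 and 94.2% ± 2.00 of its TPM in the first and second tables.

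Gjb6 had 1 complete coding transcript, Gjb6-201, with 76.3% of the TPM in replicate 1 and 48.9% in replicate 2. A retained-intron transcript, Gjb6-204, held 23.7% and 32.2%, against a median of 12.7% over 7721 detected genes that have one, but 8.86% and 10.4% in the second table. Complete coding transcripts of Gjb6 were at 3.22 ± 0.417 TPM, and those of Gjb2 at 3.95 ± 0.184 TPM, but this pair was not separated. Nor was it separated with complete coding transcripts in the second table, where the log2 ratio of Gjb6 to Gjb2 was 0.12 ± 0.08. For whole genes in the second table the pair was separated, at a log2 ratio of 0.49 ± 0.20.

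Of the 6 members with several transcripts, 4 (Gjb6, Gjc3, Panx1 and Panx2) had the same leading transcript in both libraries and both tables, against 65.4% of 12401 detected genes with several transcripts. Within the first table the leading transcript was the same in both libraries for all 6, against 87.7%, and within the second table for all 6, against 85.8%. At the gene level the posterior SD of the count in the first table, the error from dividing shared reads, was 0 for all 8 members in both libraries, as for 78.9% of detected genes.

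**Figure D5:**
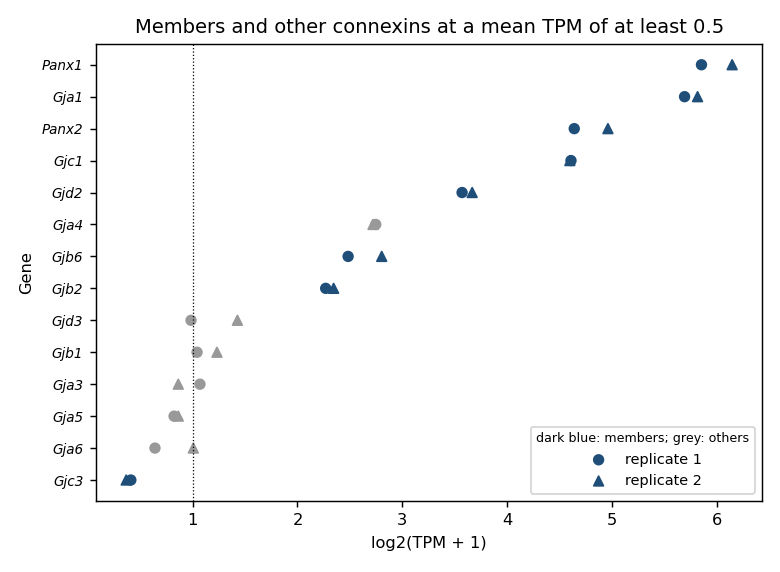
Levels of the members and of other connexins with a mean TPM of at least 0.5, as log2(TPM + 1), circles for replicate 1 and triangles for replicate 2, members in dark blue and the others in grey. The dotted line is a TPM of 1. Apart from Gja4, the grey genes lie near the line, and Gjc3 is the member that lies below it in both libraries.

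Beyond the members, 2 of 15 annotated connexins and pannexins were detected. Gja4, a connexin of endothelial cells and arteries, was at 5.71 and 5.59 TPM (176 and 164 counts), above Gjb2 in both libraries, above Gjb6 in replicate 1 and below it in replicate 2. Gjb1 was at 1.06 and 1.35 TPM. The connexins outside the members held 10.5% ± 0.481 of the connexin TPM, and among them Gjd4 and Gje1 had 0 counts in both libraries of the first table. Gja4 held 5.22% ± 0.368, Gjb6 4.85% ± 0.637 and Gjb2 3.64% ± 0.0326. No tested gene of these 15 was called between the libraries (0 of 7), against 2.88% of all genes tested.

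All 11 genes of junction scaffolds and regulators were detected. The highest were Ctnnb1, which encodes beta-catenin of adherens junctions, at 365 ± 0.255 TPM, and Dbn1, which encodes the actin-binding drebrin, at 310 ± 12.9 TPM. Tjp3, a scaffold of epithelial junctions, was the lowest, with 3.55 and 2.66 TPM in replicates 1 and 2. Gja1 was thus below the junction genes with the highest levels and far above Tjp3.

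Of 10 genes of other large-pore channels, 5 were detected. The volume-regulated anion channel genes Lrrc8b and Lrrc8d led at 52.2 ± 0.226 and 31.9 ± 1.29 TPM, and Calhm1, a channel gene of taste cells, was listed at 0 in both libraries. Of 13 genes of extracellular ATP and adenosine, 11 were detected: the adenosine receptor gene Adora1 was at 37.8 ± 0.127 TPM and Slc17a9, the vesicular ATP transporter gene, at 0.220 ± 0.0424 TPM. In these 3 lists 0 of 11, 0 of 6 and 0 of 12 tested genes were called between the libraries, against 2.88% of all genes tested. At the adjusted p of the exact binomial test alone 5, 3 and 2 passed, against 23.9% of all genes tested.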

How the data were processed

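Total RNA-seq tables of 2 libraries, replicates 1 and 2 of 1 group, were used. Per the deposited file descriptions the build is mm10 with GENCODE M21 (GRCm38). The first tables (genes and transcripts) were made from reads aligned to the transcriptome and the second from the reads directly; which aligner, quantifiers and versions made them is not given in the sources used here. The deposited expected counts split shared reads between features, and the TPM values, as deposited, divide by effective length. The deposited percent values are each transcript's share of the gene's TPM. Spike-ins, phiX and entries without a gene identifier stayed out.

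Counts were rounded and scaled by TMM (edgeR 4.0.16, R 4.3.3; factors 0.990 and 1.01, genes kept by filterByExpr). Genes with 20 or more counts over both libraries entered an exact two-sided conditional binomial test with Benjamini-Hochberg adjustment; log2 ratios had 0.5 added to each count. The test covers counting error only. It was run on simulated counts that held no other error, as the test assumes, so that run does not show how it performs on real libraries. Intervals are exact 95% Clopper-Pearson. A complete coding transcript is annotated protein-coding with neither end of its coding sequence missing. DESeq2 1.42.0 size factors, total counts, the second table, other thresholds and single libraries were the alternatives. Python 3.11.15, numpy 2.4.6, pandas 2.3.3, scipy 1.17.1 and matplotlib 3.10.9 were used otherwise. Named were all members and, of the pathway lists, the 2 genes highest and the 1 lowest in mean TPM, and any list gene called between libraries; of the marker lists, examples by the same rule are named where they bear on a member. Values of some genes under this rule were left out of the text. No gene is named for a like pattern, which 2 libraries cannot give. Members and lists were chosen with earlier results of these data known.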

Additional observations from a re-analysis of the deposited data

How the results depend on the processing

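The counts of members detected (7; 5 at a TPM threshold of 5) and of separated neighbours (5 to 7) stayed within 1.5 times of the main value under each alternative run, as did that of leading transcripts shared (4; 6 within either table alone), and members called between libraries stayed at 0. The detected connexins and pannexins outside the members, 2 in the gene table, were 4 in the second table, 6 at a TPM threshold of 0.5 and 1 at a threshold of 5, and 3 to 4 with 1 library left out (4 without replicate 1). The share of connexin TPM held by Gja1, 48.8%, was 48.3% in the second table and 56.2% over complete coding transcripts of the 6 connexin members. The last value also leaves the other connexins, with 10.5% of the connexin TPM, out of the sum. In the second table the log2 count ratio between libraries was -0.0085 for Gja1, -0.024 for Gjb2 and 0.48 for Gjc3, each opposite in sign to the first table and not called. Panx1 over Gja1 turned to -1.09 and -1.16 (log2) with complete coding transcripts in the first and second tables. Panx2 over Gjc1, 0.20 for whole genes, was -0.40 in the second table and -0.38 and -0.39 with complete coding transcripts. Gjb6 over Gjb2, 0.41, was -0.30 with complete coding transcripts in the first table. The ratios of complete coding transcripts omit short and incomplete models by construction; otherwise the cause was not tested. No paired analysis was possible because the series holds 1 group. Gjc3, at 21 to 25 counts, is limited by depth.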
